A study of Homo sapiens with 4 samples.

Results

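The genes described here are 36 collagen chain genes, out of 26255 gene symbols in the table. They were chosen by symbol, as every name made of COL, a number, A and a number. Left out were the 6 collagen IV genes, COL7A1 and COL17A1, called the 8 basement membrane collagens below. The set keeps COL15A1 and COL18A1, whose products also lie near basement membranes. RNA came from A549, an established human lung adenocarcinoma line, in 4 libraries with 1 library per group. The acinar tumor library came from tumor cells with gland-like growth, cut by laser microdissection from A549 xenografts in immunodeficient mice, and the solid tumor library from cells with sheet-like growth obtained the same way. The mix culture library came from GFP-labelled A549 cells sorted out of 3D colonies, read here as those grown with cancer-associated fibroblasts (CAFs). The single culture library came from GFP-labelled A549 cells of colonies grown without them. Every library is therefore of the same cell line, no genotype or drug treatment is labelled, and nothing in the labels tells whether acinar and solid cells shared a tumor or an animal. Xenograft stroma is mouse tissue, while the table carries human symbols.

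A collagen molecule is a triple helix of 3 chains, each a long run of glycine-X-Y triplets in which prolines are hydroxylated before the helix can close. Fibrillar collagens form the tension-bearing fibrils of stroma, and types V and XI sit inside fibrils of types I and II and limit their width. Fibril-associated collagens (FACITs) bind fibril surfaces, type VI forms beaded microfilaments, transmembrane collagens are anchored in the cell surface, and multiplexins (types XV and XVIII) lie near basement membranes. In tumors most fibrillar collagen is made by fibroblasts, although carcinoma cells can transcribe some of these genes.

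Estimated depth was 6632999 fragments in acinar, 7265458 in solid, 12184309 in mix and 10965202 in single. Levels are given as scaled counts, which are the deposited normalised signals divided by 1 constant common to all libraries. Since no gene length enters them, genes are ranked against each other only after division by length. A single library per group allows no test across samples, so no p-value appears. The 95% intervals are exact binomial or Poisson intervals on estimated fragments and cover counting error only, since reads without molecular identifiers are not independent molecules. All 36 collagens had whole or 0 estimated fragments in all 4 libraries. All 5 epithelial markers were at 1 scaled count or more in every library, summing to 7446 scaled counts in acinar, 7426 in solid, 4339 in mix and 4214 in single, mostly KRT8 and KRT18. EPCAM, at 28.1, 20.3, 2.09 and 2.31 in that order, and CLDN4, at 50.7, 27.4, 2.74 and 6.22, were low in both cultures. Of 12 fibroblast markers other than collagens, 4 were at 1 scaled count or more in each library, and POSTN and PDPN were at 0 in all of them. Fewer cells expressing a gene and less RNA per cell cannot be told apart in these bulk libraries.

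Of the 36 collagens, 16 reached 1 scaled count in at least one library, 10 were at or above it in all 4 libraries, and 9 reached 20 scaled counts somewhere. The measured ones were 7 of 11 fibrillar chains, 3 of 10 FACITs, 2 of 5 type VI chains, 1 of 3 transmembrane collagens, both multiplexins, 1 of 2 unclassed genes (COL26A1) and 0 of 3 short-chain network collagens. The other 20 had at most 8 estimated fragments in any library. Of these, COL6A5, COL6A6, COL8A1 and COL19A1 were at 0 in all 4 libraries, where 3 fragments correspond to 0.465 scaled counts in acinar, 0.420 in solid, 0.242 in mix and 0.267 in single. Some collagens of cartilage were among the low ones. COL2A1, the chain of type II, had 0 fragments in acinar, solid and mix and 3 in single. COL11A1 had 0 in acinar, 0 in solid, 4 in mix and 2 in single. COL10A1, the chain of hypertrophic cartilage, had 2 fragments in single and 0 in the other libraries. Against these, COL11A2, also a type XI chain, was at 1.55 to 3.11 scaled counts. Of 4 cartilage markers other than collagens, 2 were at 1 scaled count or more in each library. SOX9 was at 179, 149, 50.7 and 83.5 in acinar, solid, mix and single, and MATN3 at 13.6, 11.05, 9.74 and 5.15. ACAN had 1 fragment in acinar and 0 elsewhere, and COMP had 0 in all. Chains with at least 1 fragment numbered 20 in acinar and 21 in solid, and 26 in mix and 27 in single, the deeper libraries.

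**Figure D1:**
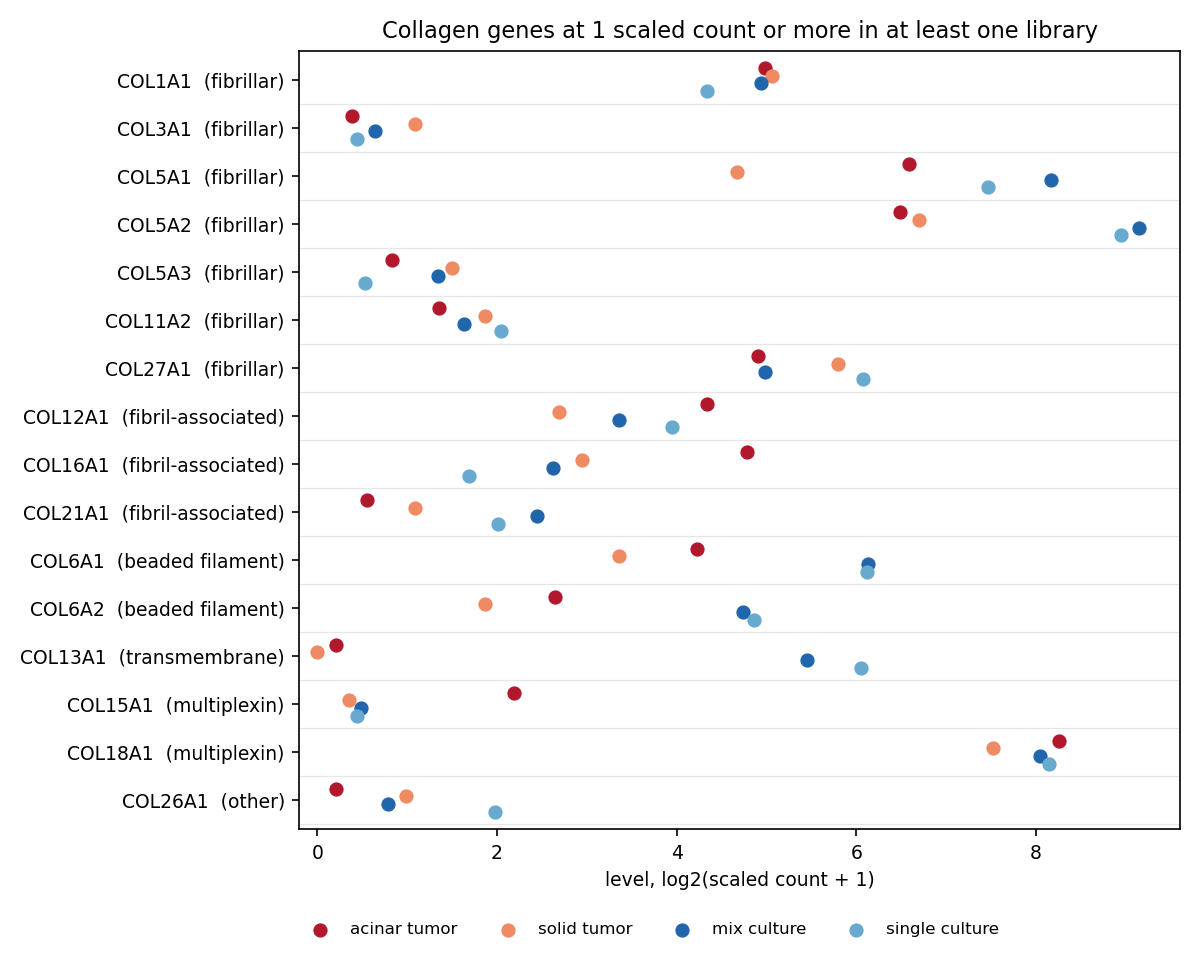
Level of the 16 collagens at 1 scaled count or more in at least one library, as log2(scaled count + 1), 1 point per library, grouped by structural class. COL5A2, COL6A1, COL6A2 and COL13A1 lay to the right in both cultures, COL16A1 and COL15A1 were highest in the acinar tumor, and COL18A1 was high in every library.

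Per kilobase of merged exons (GENCODE release 29, which need not be the authors' annotation), the leading collagens were COL18A1, which encodes the endostatin-bearing multiplexin, and the type V chains. In acinar the order was COL18A1 at 44.5, COL5A2 at 12.5 and COL5A1 at 11.1 scaled counts per kilobase, and COL5A2 and COL5A1 were close together. In solid it was COL18A1 at 26.7, COL5A2 at 14.5 and COL27A1 at 7.0. In both cultures COL5A2 led, at 79.6 in mix and 69.6 in single, ahead of COL18A1 at 38.5 and 41.2 and COL5A1 at 33.4 and 20.6 in the same order of libraries. Fibrillar chains together made up 39.5% of the collagens' summed scaled counts in acinar, 51.2% in solid, 68.4% in mix and 61.9% in single, and multiplexins 49.3%, 42.4%, 19.7% and 22.9% in that order. The whole set summed to 623 scaled counts in acinar, 430 in solid, 1336 in mix and 1228 in single, a sum that weights long transcripts more.

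The chains of the most abundant stromal collagens were expressed unevenly. COL1A1, the α1 chain of type I collagen, was at 30.7 scaled counts in acinar, 32.3 in solid, 29.5 in mix and 19.3 in single. Its partner in the usual heterotrimer, COL1A2, had 1, 2, 2 and 0 fragments in those libraries, so COL1A1 held between 99.1% and 100% of the fragments of the pair in each library. COL3A1, the type III chain that fibroblasts make together with type I, had 2 fragments in acinar, 8 in solid, 7 in mix and 4 in single. COL6A3, the α3 chain that joins the α1 and α2 chains in the classic type VI molecule, had 0 fragments in both tumors, 3 in mix and 4 in single, while COL6A1 had 114, 66, 855 and 771 fragments in acinar, solid, mix and single. Of the 12 fibroblast markers, 4 were at 1 scaled count or more in mix and single: ACTA2 at 13.3 and 21.4, THY1 at 2.01 and 1.33, PDGFRA at 1.13 and 1.96 and TCF21 at 1.53 and 2.84. The other 8 had at most 2 fragments in either culture.

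The comparison of acinar with solid tumor cells asks how gland-like and sheet-like areas differ. COL5A1, COL12A1, COL15A1 and COL16A1 were at least 2-fold higher in acinar, and no measured collagen was at least 2-fold lower. The limit was applied to ratios of scaled counts with 1 added, among genes at 1 scaled count or more in either library. These were 4 of 14 measured collagens higher and 0 lower, where 1.98% of all 13979 measured genes were higher and 2.55% lower. The median log2 ratio was 0.33 for the 14 collagens and 0.01 for all genes, with 7 collagens above 0 and 7 below. With no filter on low values the median over 23 collagens was -0.15.

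COL5A1, the α1 chain of type V collagen, was at 94.7 scaled counts in acinar and 24.5 in solid, a fold of 3.87 (95% interval 3.27 to 4.61). COL16A1, a FACIT found near fibrils and cell contacts, was at 26.5 in acinar and 6.71 in solid, 3.95-fold higher (2.85 to 5.56). COL12A1, a FACIT of dense connective tissue, was at 19.2 in acinar and 5.45 in solid, 3.53-fold higher (2.44 to 5.19). COL15A1, a multiplexin of the basement membrane zone, was at 3.57 scaled counts in acinar and 0.280 in solid, a ratio of 12.8 that rests on 23 and 2 fragments (3.15 to 112), and its log2 ratio was 0.70 with a pseudocount of 5. For COL16A1 and COL15A1 the annotation places a gene on the opposite strand over their exons, and without a known strand setting reads of the pair cannot be told apart. The acinar library was also the highest of all 4 for COL12A1, COL15A1 and COL16A1, but for COL5A1 both cultures were higher.

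The 250 bases before the RefSeq start of these genes are shown because the 4 were higher together, with matches in capitals (GRCh38.p14, 5′ to 3′ on the gene's strand, sequences from RefSeq). They lie at chr9:134641553-134641802 (plus strand), chr6:75206054-75206303 (minus strand), chr9:98943657-98943906 (plus strand) and chr1:31704018-31704267 (minus strand).
COL5A1: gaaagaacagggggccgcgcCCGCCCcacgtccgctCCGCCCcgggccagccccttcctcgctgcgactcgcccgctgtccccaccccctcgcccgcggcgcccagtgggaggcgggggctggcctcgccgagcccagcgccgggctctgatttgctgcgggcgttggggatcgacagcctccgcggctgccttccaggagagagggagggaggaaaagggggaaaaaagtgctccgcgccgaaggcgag
COL12A1: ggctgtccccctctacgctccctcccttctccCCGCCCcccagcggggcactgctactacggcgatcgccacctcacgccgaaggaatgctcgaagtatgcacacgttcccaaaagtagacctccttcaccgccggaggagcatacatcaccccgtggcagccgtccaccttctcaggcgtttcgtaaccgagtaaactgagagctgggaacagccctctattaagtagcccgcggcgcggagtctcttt
COL15A1: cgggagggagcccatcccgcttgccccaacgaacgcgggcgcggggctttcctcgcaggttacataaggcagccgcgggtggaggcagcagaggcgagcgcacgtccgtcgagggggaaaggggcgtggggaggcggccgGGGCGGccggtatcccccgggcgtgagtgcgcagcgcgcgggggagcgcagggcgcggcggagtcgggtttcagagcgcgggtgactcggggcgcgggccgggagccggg
COL16A1: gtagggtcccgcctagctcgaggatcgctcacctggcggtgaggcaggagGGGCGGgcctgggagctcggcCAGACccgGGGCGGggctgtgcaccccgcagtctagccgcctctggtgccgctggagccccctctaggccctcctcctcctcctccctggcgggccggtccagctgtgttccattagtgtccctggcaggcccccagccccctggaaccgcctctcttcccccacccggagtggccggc
The letters searched, on both strands, were TATAAA for the TATA box, CCAAT for the CCAAT box, GGGCGG for the GC box, CAGAC for a SMAD element and TGANTCA for an AP-1 element, and in these 4 sequences no match overlapped another. The GC box letters occurred in all 4 windows, once or 2 times each, and in 42.6% of all 35116 promoter windows of this length in the table. CAGAC occurred in the COL16A1 window, 179 bases before the start, and in none of the other 3, against 38.0% of all windows. The letters of the TATA box, the CCAAT box and the AP-1 element were in none of the 4, against 10.7%, 32.0% and 6.57% of all windows. The GC content was 74.0% for COL5A1, 61.2% for COL12A1, 76.8% for COL15A1 and 73.2% for COL16A1. Of the 16 measured collagens 12 had an entry in the table, and 9 of these 12 held the GC box letters, 2 those of the TATA box, 1 the CCAAT box, 2 the SMAD element and 0 the AP-1 element. COL1A1, COL3A1, COL5A2 and COL6A1 had none. A match describes letters and not a bound site, and the starts that A549 cells use were not measured. The GENCODE annotation used for lengths begins COL15A1 at chr9:98943179 and COL16A1 at chr1:31704319. By these starts both windows lie wholly inside the gene. The COL5A1 window runs past its GENCODE start, chr9:134641774.

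Another 3 collagens were higher in acinar by less than the limit but beyond counting error. COL6A1 was at 17.7 scaled counts in acinar and 9.23 in solid (1.92-fold, 1.40 to 2.63), COL6A2 at 5.27 and 2.66 (1.98-fold, 1.10 to 3.68), and COL18A1 at 304 and 182 (1.67-fold, 1.55 to 1.79). Lower in acinar were COL27A1, a fibrillar chain with a short helix, at 29 against 54.5 scaled counts (0.532-fold, 0.444 to 0.634), and COL5A2, the α2 chain of type V, at 88.7 against 102.6 (0.864-fold, 0.773 to 0.965). In all, the interval lay above 1 for 7 of 14 collagens and below 1 for 2, where it lay above 1 for 18.3% and below 1 for 16.7% of 12370 genes with whole fragments. For the other 5, COL1A1, COL3A1, COL5A3, COL11A2 and COL21A1, it included 1. COL1A1 was 0.95-fold with an interval of 0.782 to 1.15.

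Of the 12 fibroblast markers, 3 were at least 2-fold higher in acinar, where 1.98% of all measured genes were higher. They were LUM at 55.4 scaled counts in acinar and 19.6 in solid, MFAP5 at 563 and 225, and FAP at 2.17 and 0.420 on 14 and 3 fragments. These markers had at most 1 fragment in either culture, where COL5A1 was higher than in both tumors. ACTA2 was at 7.27 and 5.80 and TCF21 at 0.620 and 1.96, and the remaining 7 markers had at most 2 fragments in either tumor. Of 4 leukocyte markers, CD14 was at least 2-fold lower in acinar, at 2.64 against 9.65 in solid. It was higher in both cultures than in either tumor, at 13.4 in mix and 15.4 in single. CD68 was at 113 in acinar and 175 in solid, PTPRC at 1.40 and 1.26, and CSF1R had 0 and 2 fragments. The 12 fibroblast markers summed to 629 scaled counts in acinar and 254 in solid, with 6 and 4 of them at 0. Most of this was MFAP5 and LUM. In an unplanned sum without these, the other 10 came to 10.2 in acinar and 8.88 in solid. The part of host reads in the collagen values was not tested. Among the 8 basement membrane collagens, 3 were at least 2-fold higher in acinar and 0 lower, COL4A1 being at 17.2 and 6.01 scaled counts. By the same limit 1.98% of all measured genes were higher and 2.55% lower.

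**Figure D2:**
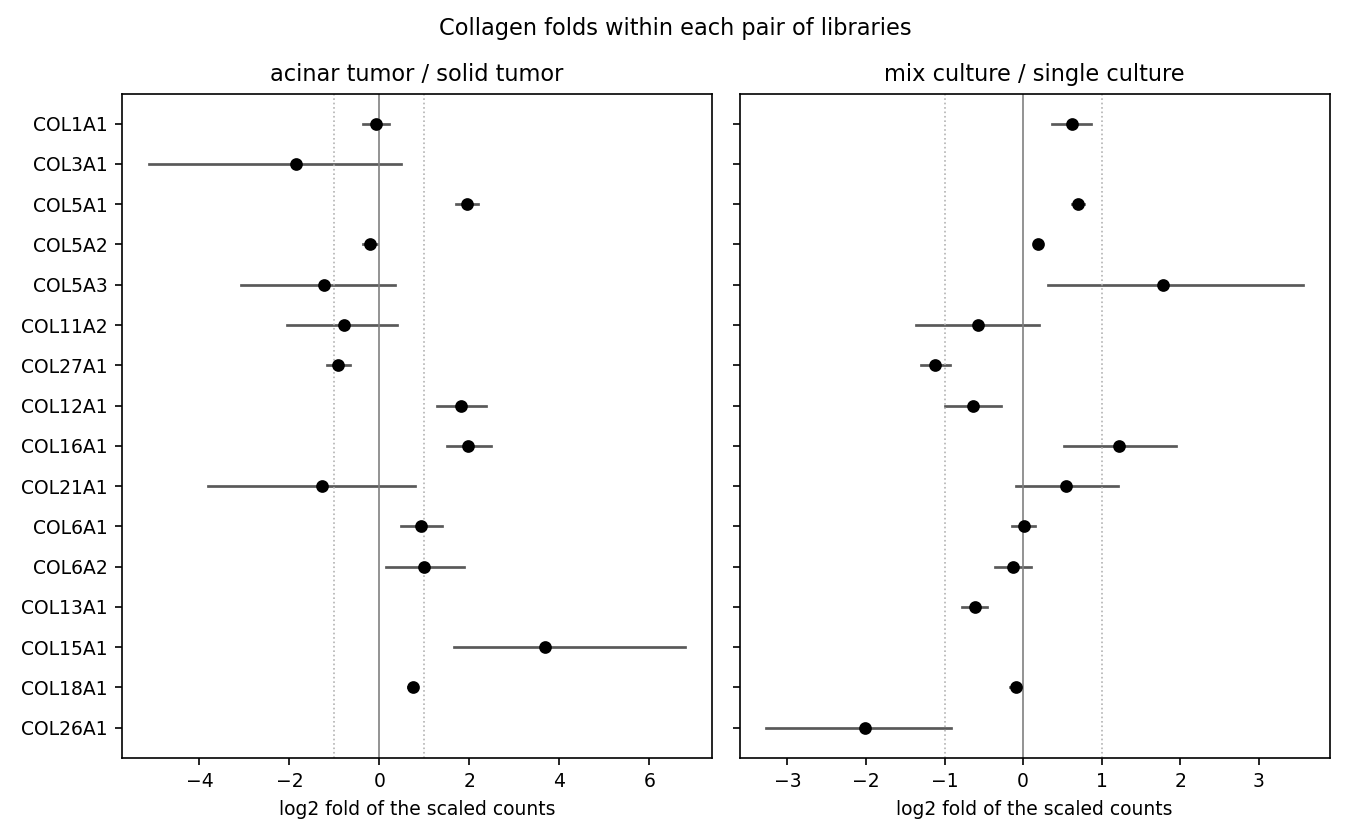
Fold of the scaled counts on a log2 axis within the tumor pair and the culture pair, with 95% counting intervals as lines. Solid line, no difference; dotted lines, 2-fold. COL5A1 and COL16A1 lay right of 0 in both panels and COL27A1 left of 0 in both, while COL12A1 changed sides, at 3.53-fold in the tumors and 0.643-fold in the cultures.

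The comparison of mix with single culture asks what growth with CAFs does to A549 cells. COL26A1 and COL27A1 were at least 2-fold lower in the mix culture, and no measured collagen was at least 2-fold higher. These were 2 of 14 measured collagens lower and 0 higher, where 1.74% of 13485 measured genes were lower and 0.682% higher. The median log2 ratio was -0.04 for the collagens and 0.01 for all genes. COL27A1 was at 30.6 scaled counts in mix and 66.3 in single, 0.461-fold (0.407 to 0.523). COL26A1, a small collagen with short helical stretches, was at 0.725 in mix and 2.93 in single, 0.247-fold on 9 and 33 fragments (0.104 to 0.528), and its log2 ratio was -0.47 with a pseudocount of 5.

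COL5A1 was at 285 scaled counts in mix and 176 in single, 1.62-fold higher (1.53 to 1.71), and COL5A2 at 564 and 493, 1.14-fold higher (1.10 to 1.19). COL1A1 was at 29.5 in mix and 19.3 in single, 1.53-fold higher (1.29 to 1.82). COL16A1 was at 5.15 in mix and 2.22 in single, 2.32-fold as a plain ratio (1.44 to 3.84), which is 0.93 on the log2 scale with 1 added and so below the limit. COL5A3, the third type V chain, was at 1.53 and 0.444 on 19 and 5 fragments (3.44-fold, 1.24 to 11.8), and it too has an annotated gene on the opposite strand over its exons. These were the 5 of 14 collagens whose interval lay above 1, where 23.3% of 11787 genes with whole fragments did.

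Besides COL26A1 and COL27A1, 3 collagens had an interval below 1, where 20.4% of genes did. COL12A1 was at 9.26 scaled counts in mix and 14.4 in single (0.643-fold, 0.502 to 0.822) and COL13A1 at 42.7 and 65.5 (0.651-fold, 0.582 to 0.729). COL18A1 was at 263 and 281 (0.937-fold, 0.892 to 0.984). The type VI chains did not differ beyond counting error, COL6A1 at 68.8 and 68.5 (1.0-fold, 0.910 to 1.11) and COL6A2 at 25.6 and 28.0 (0.915-fold, 0.780 to 1.07), and neither did COL11A2 and COL21A1. Of the 12 fibroblast markers, 6 were at 0 in mix and 7 in single, and they summed to 18.2 and 27.7 scaled counts. COL1A2 at 2 and 0 fragments, COL3A1 at 7 and 4 and COL6A3 at 3 and 4 were near 0 in both.

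The tumor pair and the culture pair share no library, so their folds can be set side by side. Of 12 collagens measured in both, COL5A1 and COL16A1 had an interval above 1 in both pairs, and COL27A1 had one below 1 in both. COL12A1 and COL18A1 were higher in acinar than solid but lower in mix than single, and COL5A2 was lower in acinar but higher in mix. Over 11138 genes with whole fragments in both pairs, 6.25% were above 1 in both, 5.74% below in both, 3.57% above and then below, and 3.62% below and then above. The common form of type V collagen has 2 α1 chains and 1 α2 chain. The COL5A1 share of COL5A1 and COL5A2 fragments was 51.6% in acinar (48.8 to 54.5) and 19.3% in solid (16.7 to 22), and 33.6% in mix (32.7 to 34.5) and 26.3% in single (25.3 to 27.3). The share was higher in acinar and in mix, with no overlap of the counting intervals within either pair. The annotated lengths of both genes are the same for every library, but isoform use and coverage along the transcripts were not measured. The share is also not a count of chains. For type VI the COL6A1 share of COL6A1 and COL6A2 fragments was 77.0% in acinar (69.4 to 83.5), 77.6% in solid (67.3 to 86.0), 72.9% in mix (70.2 to 75.4) and 71.0% in single (68.2 to 73.7), with overlapping intervals within each pair.

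**Figure D3:**
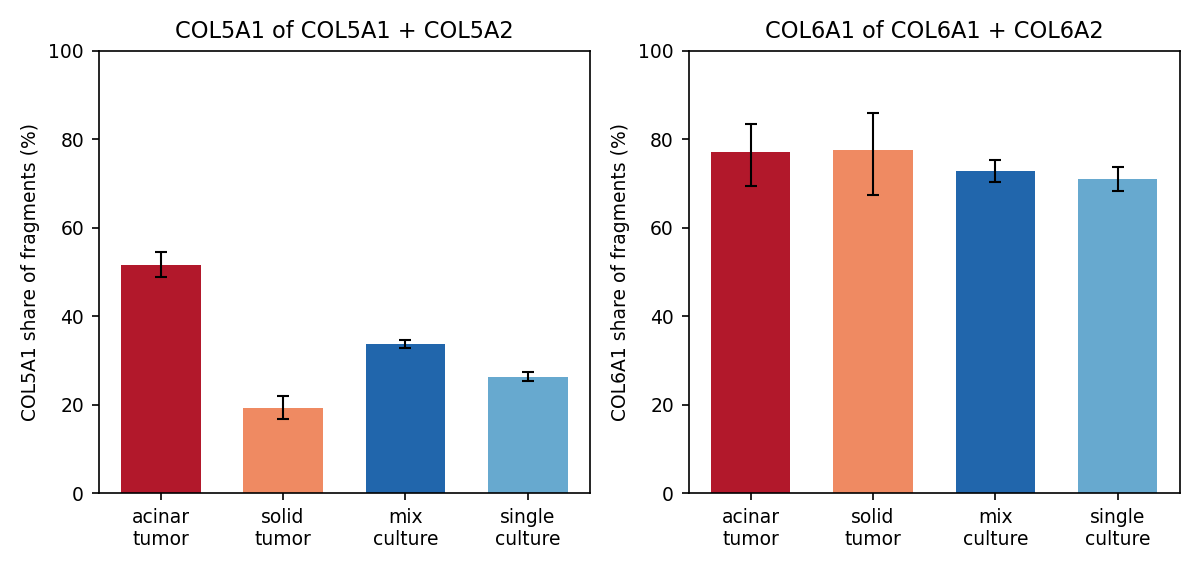
Share of estimated fragments held by COL5A1 among COL5A1 and COL5A2 (left) and by COL6A1 among COL6A1 and COL6A2 (right), in percent, with 95% exact (Clopper-Pearson) intervals. The type V share was 51.6% in the acinar and 19.3% in the solid tumor, while the type VI share lay between 71.0% and 77.6% in all 4 libraries.

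Between the 2 tumors and the 2 cultures, 4 of 16 measured collagens were at least 2-fold lower in both tumors than in both cultures, namely COL5A2, COL6A1, COL6A2 and COL13A1, and 0 were at least 2-fold higher in both. Of 14561 measured genes, 8.22% were lower and 9.67% higher by this rule. Growth in a mouse, microdissection in place of sorting, and lower depth all go with the tumors and cannot be told apart here. Markers that were at least 2-fold higher in both tumors were MFAP5, at 0 fragments in both cultures, LUM, at 1 in mix and 0 in single, EPCAM and CLDN4 (values above) and CD68, while THY1 and PDGFRA, at 0 fragments in both tumors, were lower. CD68 was at 113 scaled counts in acinar and 175 in solid against 26.8 in mix and 29.5 in single. Of the other leukocyte markers, CD14 went the other way, at 2.64 and 9.65 in acinar and solid against 13.4 and 15.4 in mix and single. PTPRC was at 1.40, 1.26, 0.644 and 0.800 in acinar, solid, mix and single, and CSF1R was below 1 scaled count in every library. The part of other cell types was not tested. Without the 2-fold limit, tumors lay below cultures with no overlap for 6 collagens (the 4 named, COL5A1 and COL21A1), where 38.7% of all genes did. Tumors lay above for 2 (COL1A1 and COL16A1), where 39.8% did, and the groups overlapped for 8. For COL1A1 neither tumor differed from mix beyond counting error. The acinar tumor was 1.04-fold of mix (0.870 to 1.24), and solid was at 32.3 scaled counts against 29.5 in mix.

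COL13A1, a transmembrane collagen of cell contacts and the neuromuscular junction, gave the widest separation among the 16. It had 1 fragment in acinar and 0 in solid, against 530 fragments in mix and 737 in single, or 0.155 and 0 scaled counts against 42.7 and 65.5. With 3 fragments as the upper limit in the solid library, it was at least 102-fold lower there than in mix and at least 156-fold lower than in single, while the exact 95% intervals of these folds began at 82.4 and 127. The ratio of acinar to mix was 0.00363 (9.18e-05 to 0.0203). The 250 bases before its RefSeq start (chr10:69801656-69801905, plus strand) are shown for comparison with the sequences above, since its pattern across the libraries differed from theirs.
COL13A1: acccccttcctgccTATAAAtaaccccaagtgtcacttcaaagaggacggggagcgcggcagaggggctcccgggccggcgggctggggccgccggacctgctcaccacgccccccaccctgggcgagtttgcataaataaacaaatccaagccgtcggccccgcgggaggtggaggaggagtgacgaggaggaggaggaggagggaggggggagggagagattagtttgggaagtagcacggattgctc
The capitals mark TATAAA, 236 bases before the start, and the window held none of the other letters searched. This window too runs past the GENCODE start, chr10:69801867.

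COL5A2 was at 88.7 in acinar and 102.6 in solid, against 564 in mix and 493 scaled counts in single, so the lower culture was 4.80-fold above the higher tumor. COL6A1 was at 17.7 and 9.23 in the tumors against 68.8 and 68.5 in the cultures, and COL6A2 at 5.27 and 2.66 against 25.6 and 28.0, with lowest separations of 3.88-fold and 4.86-fold. COL21A1, a FACIT of blood vessel walls, had 3 and 8 fragments in the tumors against 55 in mix and 34 in single. COL16A1 ran the other way, at 26.5 in acinar and 6.71 in solid against 5.15 in mix and 2.22 in single, and the solid tumor did not differ from mix beyond counting error (1.3-fold, 0.877 to 1.92). COL18A1 (304, 182, 263 and 281 scaled counts in acinar, solid, mix and single), COL12A1 (19.2, 5.45, 9.26 and 14.4) and COL27A1 (29, 54.5, 30.6 and 66.3) had overlapping tumors and cultures. COL11A2, a type XI chain, was low everywhere, at 1.55, 2.66, 2.09 and 3.11 in the same order. Among the 8 basement membrane collagens 3 were at least 2-fold higher in both tumors and 4 lower. By this rule 9.67% of all measured genes were higher and 8.22% lower.

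Of the 25 genes listed for collagen modification and export, 24 were measured in each pair, and COLGALT2 had 0 fragments in both tumors, 5 in mix and 9 in single. Of 13 measured hydroxylation and glycosylation genes, 0 passed 2-fold in either pair, with 9 ratios below 0 in each and medians of -0.30 in the tumor pair and -0.17 in the culture pair. Over all measured genes 6881 of 13979 ratios were below 0 in the tumor pair and 6474 of 13485 in the culture pair. P4HA1, a catalytic subunit of prolyl 4-hydroxylase, was at 76.7 scaled counts in acinar and 132 in solid (0.583-fold, 0.521 to 0.650), and at 164 in mix and 216 in single (0.759-fold, 0.715 to 0.805). PLOD2, the lysyl hydroxylase of telopeptide cross-links, was at 200 in acinar and 274 in solid (0.730-fold, 0.680 to 0.783), and at 843 in mix and 815 in single. All 11 chaperone and export genes had a ratio below 0 in the tumor pair, the median being -0.36, and 9 of 11 did in the culture pair, with a median of -0.15. In the tumor pair the counting interval included 1 for 4 of the 11, FKBP7, SERPINH1, SPARC and TMEM38B. SERPINH1, which encodes the collagen chaperone HSP47, was at 80.5 and 89.4 scaled counts in acinar and solid and at 251 and 264 in mix and single. CREB3L1, a transcription factor that drives secretory and collagen genes, was the 1 member at least 2-fold lower in each pair. By the same limit 2.55% of all measured genes were lower in the tumor pair and 1.74% in the culture pair. CREB3L1 was at 19.7 in acinar and 66.7 in solid (0.295-fold, 0.241 to 0.360), and at 1.05 in mix and 8.44 in single (0.124-fold, 0.0637 to 0.222).

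Of the procollagen cleavage genes, 4 were measured in the tumor pair with 0 past 2-fold, and 6 in the culture pair with 1 lower. By that limit 1.98% of all measured genes were higher and 2.55% lower in the tumor pair, and 0.682% and 1.74% in the culture pair. BMP1, the C-propeptide protease, was at 277 in acinar and 225 in solid (1.23-fold, 1.15 to 1.32), and at 118 in mix and 138 in single (0.857-fold, 0.797 to 0.921). TLL1, a related protease, was at 1.21 in mix and 3.91 in single (0.309-fold, 0.16 to 0.566). Of the N-propeptide proteases listed, ADAMTS2 and ADAMTS3 had at most 2 fragments in any library. ADAMTS14 had 2 in acinar, 0 in solid, 47 in mix and 77 in single (0.553-fold in mix over single, 0.376 to 0.805). It was at least 2-fold lower in both tumors than in both cultures. ADAMTS2, ADAMTS3 and ADAMTS14 were named after their values were seen.

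Among collagen receptors 0 of 8 measured were at least 2-fold higher and 1 lower in the tumor pair, and 0 of 7 higher and 2 lower in the culture pair. The shares of all measured genes were 1.98% higher and 2.55% lower in the tumor pair, and 0.682% and 1.74% in the culture pair. ITGA10, an integrin chain for collagen, was lower in both, at 2.33 in acinar and 7.83 in solid (0.297-fold, 0.156 to 0.532) and at 5.80 in mix and 19.1 in single (0.303-fold, 0.229 to 0.398). ITGA11, which binds fibrillar collagen, was at 4.96 and 2.94 in acinar and solid, where the interval included 1 (0.945 to 3.08), and at 1.21 and 5.15 in mix and single (0.234-fold, 0.123 to 0.419). The epithelial integrin chain ITGA2 was at 31.2 in acinar, 25.5 in solid, 153 in mix and 175 in single. The receptor kinase DDR1 was at 316, 236, 163 and 189 in that order, and DDR2, its mesenchymal relative, was below 1 scaled count in every library. MRC2, the endocytic collagen receptor, was at 11.6 and 12.3 scaled counts in acinar and solid against 344 and 380 in mix and single (named after its values were seen).

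Past the 2-fold limit, 1.98% of all measured genes were higher and 2.55% lower in the tumor pair, and 0.682% and 1.74% in the culture pair. Of fibril-binding proteins, 2 of 7 measured were at least 2-fold higher in acinar and 2 lower, and 0 of 4 were higher and 2 lower in mix. LUM, a fibril-spacing proteoglycan, and THBS1, a matrix glycoprotein that activates latent TGF-β, were the higher ones, THBS1 at 96.9 and 37.8 scaled counts in acinar and solid (2.57-fold, 2.22 to 2.97). FN1 and TNXB were lower in both pairs, TNXB, a tenascin of collagen fibrils, at 1.24 and 4.89 in acinar and solid (0.253-fold, 0.102 to 0.556). FN1, whose fibres guide collagen assembly, was at 102 in acinar and 292 in solid (0.348-fold, 0.319 to 0.380) and at 1136 in mix and 3394 in single, where its fragments were not whole and no interval is given. BGN, KERA and OGN were at 0 in all 4 libraries (named after their values were seen). CREB3L1, past 2-fold in both pairs, was counted above with the chaperone and export genes. Of 10 other transcription factors with known collagen gene targets, 0 of 8 measured in the tumor pair and 0 of 6 in the culture pair passed 2-fold. Between both tumors and both cultures, 2 of these 8 were at least 2-fold lower in the tumors and 0 higher. They were RUNX2 and TWIST1 (named after their values were seen), where 8.22% of all measured genes were lower.

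**Figure D4:**
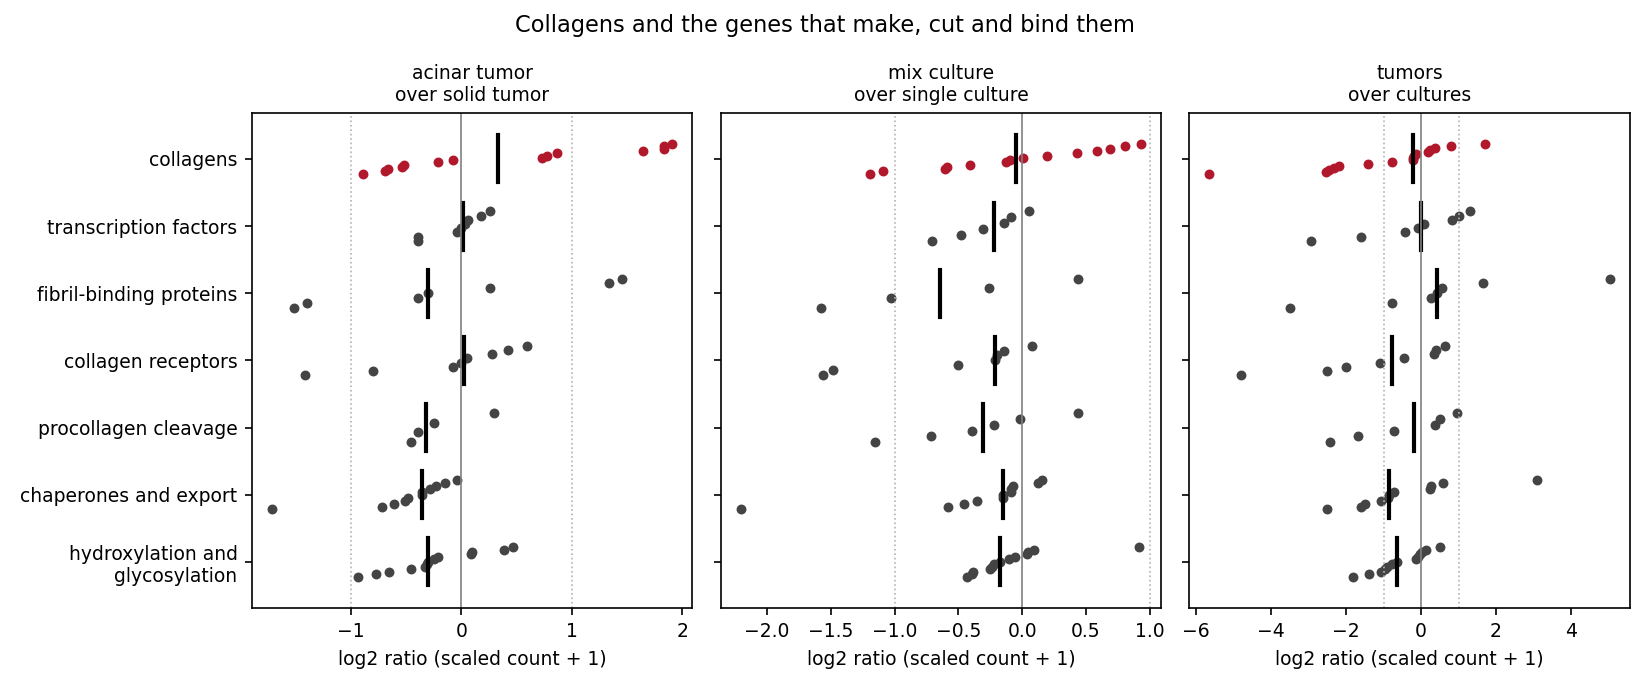
Log2 ratio of scaled count + 1 for each measured gene (points) and the median (bar) of the collagens and 6 related lists in the 3 comparisons. Dotted lines mark 2-fold. In the tumor pair all 11 chaperone and export genes lay below 0, as did 6881 of 13979 genes, 4 of the 11 having a counting interval that included 1. The collagens lay on both sides, 7 above and 7 below.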

How the data were processed

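The authors deposited 1 table holding a signal per gene and library (named raw in the file header). Between 89.9% and 91.1% of nonzero entries fell, within 0.05 of a fragment, on whole multiples of a step particular to the library, as counts divided by a size factor would. Since the rest were fractional, no count model was fitted. Per the submitters' processing notes, the tools included Cuffdiff 2.2.1, TopHat2 2.0.13, SAMtools 1.0 and Bowtie2 2.2.3, and the build named is hg19. The annotation, filters and strand setting were not given in the sources used here.

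All libraries were divided by 8.94, which puts the mean total on the scale of CPM. Ratios used a pseudocount of 1 and genes at 1 scaled count or more in a library compared. For tumors against cultures the ratio is the difference of mean log2 values. Fragments were signals divided by the step, rounded. Intervals of folds are exact conditional binomial (Clopper-Pearson). Calls and intervals were run on simulated counts that varied by counting error only, with changes planted in genes above the low levels. That simulation could not test variation between samples or changes in low genes. Python 3.11.15 and scipy 1.17.1 were used. Promoter windows came from RefSeq (GRCh38.p14) and exon lengths from GENCODE release 29, the latter also on GRCh38, so neither is on the files' build and no coordinates were converted.

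The collagens and related lists were chosen with earlier results of these data known. Named were all collagens at 1 scaled count or more somewhere, related genes past 2-fold in a pair (of the basement membrane collagens COL4A1 only), and 8 related genes whatever their values (SERPINH1, P4HA1, PLOD2, BMP1, ITGA2, ITGA11, DDR1 and DDR2). Alternatives were other pseudocounts, filters, scalings and only genes with whole fragments.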

Additional observations from a re-analysis of the deposited data

How the results depend on the processing

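With a pseudocount of 0.1, 3 collagens in place of 0 were at least 2-fold lower in acinar (COL3A1, COL5A3 and COL21A1), and 2 in place of 0 were at least 2-fold higher in mix (COL5A3 and COL16A1). The same pseudocount added COL21A1 to those lower in both tumors, 5 in place of 4. By its construction, a smaller pseudocount widens ratios of low genes. In mix, 1 collagen in place of 2 was at least 2-fold lower with a pseudocount of 5 and with a filter of 5 scaled counts, COL26A1 being the one lost, and in acinar 3 in place of 4 were higher under both. With no filter the median log2 ratio of acinar over solid was -0.15 over 23 collagens, so its sign turned against 0.33. With a filter of 5 the tumor over culture median was -1.20 over 10 collagens, against -0.22 over 16. COL15A1 was the one lost in acinar (0.70 with a pseudocount of 5). With the same total in each library, or median-of-ratios size factors, no count of collagens past 2-fold changed, while scaling to the same total moved the summed collagen level to 1362 in mix and 1260 in single, against 1336 and 1228. No paired analysis was possible because each group has 1 library. Depth limits the low collagens most: COL3A1, with 2 and 8 fragments in acinar and solid, had an interval of the fold of 0.0287 to 1.39.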
